A study of Danio rerio with 16 samples.

Results

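Genes of fibroblast growth factor (Fgf) signalling and of its feedback control were followed in zebrafish embryos exposed to retinoic acid (RA), to 2 doses of an RA receptor antagonist or to solvent. They are the 53 of 8793 named genes whose symbol in the array annotation starts with fgf, spry, spred, dusp, etv, mapk, map2k, il17rd or flrt. The brightest probe set of a gene, by its mean log2 over 16 arrays, stands for it, and 15 further probe sets of 10 genes are given where they bear on a result. No gene under the flrt prefix was found, and 1 further probe set names mapk14a together with another gene and was not used.

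Whole wild-type embryos from AB/Wik hybrid parents, freed of the chorion, were collected at 11 hours post fertilization (hpf), the early somite stage, and total RNA was hybridised to Affymetrix arrays. RA, the vitamin A derivative that activates the RA receptors, was given at 0.33 µM from 6.5 hpf, for 4.5 hours. AGN193109 (AGN below), a synthetic antagonist of these receptors that the sample titles spell AGN193019, was given at 10 µM or at 1 µM from 5.25 hpf, for 5.75 hours. The controls received the solvent dimethyl sulfoxide (DMSO) at 2% from 5.25 hpf, and the compounds were diluted from DMSO stocks to the same 2%. RA and DMSO embryos therefore differ in the length of exposure as well. Every treatment was done 4 times, so that n = 4 for each of the 4 groups. Doses are in µM here, as the titles have them, although the treatment protocol writes mM.

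Fgf ligands bind receptor tyrosine kinases together with heparan sulphate, and the receptors pass the signal through Ras, Raf and the MEK kinases to the ERK kinases. ERK activity switches on ETS transcription factors of the PEA3 group (etv4, etv5a, etv5b) and, with them, inhibitors of the same cascade, such as the sproutys, il17rd (Sef) and the phosphatase dusp6. In the zebrafish gastrula and early somite embryo, Fgf ligands come from the embryonic margin and tailbud, the border of midbrain and hindbrain, the hindbrain and the anterior forebrain. RA and Fgf signals meet along the trunk and in the hindbrain of vertebrate embryos.

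Expression is given as log2 of the deposited intensity, and a fold change is a difference of group means on that scale with its standard error (SE). All probe sets above log2 4 on at least 4 of 16 arrays were tested together with limma, which kept 40 of the 53 genes, and a gene was called at a Benjamini-Hochberg adjusted p under 0.05 over all 11843 tested probe sets. The arrays were similar in brightness, with medians of 72.8 to 78.3, and arrays of 1 group correlated at a mean r of 0.975 to 0.989. The lowest value was that of a 1 µM antagonist array, and the RA arrays correlated with those of the other groups at 0.953 to 0.965. At 1 µM antagonist, replicates 2 and 3 correlated no better with their own group (0.9777 and 0.9756) than with the other groups (0.9778 and 0.9781). The signals of different genes were not tested against each other. They were added only in the sums of marker genes, where bright probe sets weigh most, and probe sets of 1 gene were ranked by brightness.

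Among the 40 tested genes, 5 were higher in RA than in DMSO embryos (fgfr3, etv6, dusp6, fgfr4 and fgf8a) and 2 were lower (dusp2 and fgf3). These 7 are 17.5% of the tested members, beside 5.75% of all tested probe sets (3.18% higher and 2.57% lower). At an unadjusted p under 0.05 there were 10 members, beside 13.2% of all probe sets. The arrays of both groups did not overlap for 9 members, 7 higher (the 5 above, il17rd and mapk14b) and 2 lower, or 22.5%, beside 10.1% of all probe sets (5.44% higher and 4.64% lower). Since fgf3 passed the filter through groups other than RA, these counts are a description. The median fold change of the tested members was 0.10 on the log2 scale, beside 0.01 over all tested probe sets. The 10 µM antagonist changed 1 gene, fgfr3, which was lower than in DMSO, or 2.5% of the members beside 0.397% of all probe sets (0.0844% higher and 0.312% lower). There, 8 members had an unadjusted p under 0.05, beside 5.15% of all probe sets. Arrays did not overlap for 3 higher (dusp2, fgf3, mapk12a) and 2 lower members (fgfr3, etv6), beside 5.45% of all probe sets (3.28% higher and 2.17% lower). At 1 µM limma called 0 of 40 members, beside 0.144% of all probe sets (0.0253% higher and 0.118% lower). At that dose 3 members (fgfr3, etv6 and dusp2) had an unadjusted p under 0.05, beside 6.28% of all probe sets, and fgfr3 and etv6 had arrays that did not overlap with DMSO, both lower, beside 2.1% (1.09% higher and 1.01% lower). The 3 comparisons share the DMSO arrays.

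**Figure D1:**
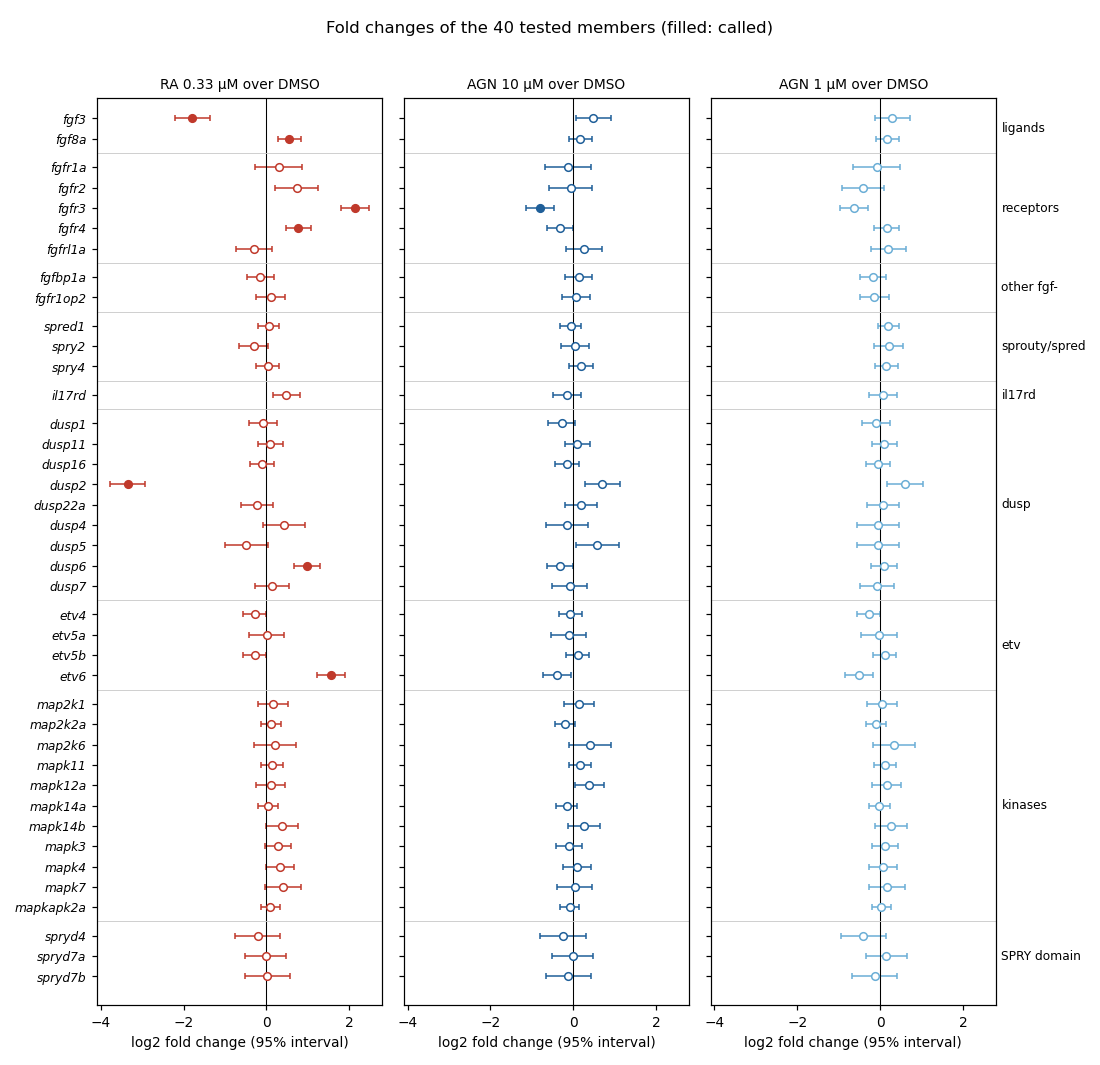
Fold change of the 40 tested members (log2 scale, points) with 95% intervals (bars) for RA over DMSO, 10 µM antagonist over DMSO and 1 µM antagonist over DMSO, grouped by role; filled points are called at an adjusted p under 0.05. Called points lie at -3.35 (dusp2) to 2.13 (fgfr3) under RA, and the single called point under the antagonist is fgfr3 at -0.80; the 3 panels share the DMSO arrays.

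The ligands were mostly dim. Counted as ligands were the 10 genes named fgf with a number, by name alone and whatever the protein does. Of these, fgf3 and fgf8a passed the filter, while fgf2, fgf4, fgf6a, fgf8b, fgf10a, fgf13a, fgf18a and fgf24 did not. Over all 13 members that failed the filter, single arrays read between log2 2.39 and 4.31, and 10 of the 13 stayed at or below log2 4 on every array. These values lie near the background and give no level.

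The ligand gene fgf3, which in zebrafish is expressed in the hindbrain and in the anterior neural plate among other places, read 2.66, 4.00, 3.43 and 3.26 (log2 intensity) in the 4 RA embryo samples. It read 5.63, 5.70, 5.75 and 5.36 at 10 µM antagonist, 5.51, 5.29, 5.34 and 5.55 at 1 µM antagonist, and 5.33, 5.09, 5.09 and 5.01 in DMSO. All RA arrays lay at or below log2 4 and all others above it, and its place among the tested genes rests on the other 3 groups. The mean in RA was at least 2.19-fold lower than in DMSO, a bound against log2 4. The limma adjusted p of 7.66e-06 came from the RA values as deposited, not from the bound, and is a description. In whole embryos, fewer cells of a kind and less RNA per cell cannot be told apart. The antagonist arrays at 10 µM all lay above the DMSO arrays, by 0.48 ± 0.20 (SE), with an adjusted p of 0.833.

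The other measured ligand, fgf8a, moved the opposite way under RA. It encodes the Fgf8 ligand of the midbrain-hindbrain border, tailbud and forebrain. Its log2 intensity was 9.88, 9.57, 9.76 and 9.59 in RA, against 9.39, 9.08, 8.93 and 9.20 in DMSO. Every RA array exceeded every DMSO array, and the mean was higher by 0.55 ± 0.13 (adjusted p = 0.0124), or 1.47-fold. The antagonist groups averaged 9.32 ± 0.12 at 10 µM and 9.33 ± 0.18 at 1 µM, against 9.15 ± 0.19 in DMSO (SD), and were not called (adjusted p of 1.00 and 0.765).

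Marker genes of the regions that make these ligands were measured on the same arrays. For the midbrain-hindbrain border, 11 symbols were listed, among them eng2a and eng2b, which are older symbols of en2a and en2b. Of these symbols 7 were on the array and 6 were tested, and 5 were lower in RA than in DMSO and 0 were higher, beside 2.57% lower and 3.18% higher among all tested probe sets, as for each list that follows. Their summed linear intensity ran from 222.0 to 277.7 in RA, against 1257 to 1394 in DMSO, and 3 of the 7 stayed at or below log2 4 on all RA arrays, against 1 of 7 in DMSO. The tested border gene without a call, pax8, went the other way, with a mean of 6.34 in RA against 5.81 in DMSO. Its limma p was under 0.05 before adjustment. Of 10 listed tailbud and presomitic genes, 8 were on the array and tested, and 4 were lower and 0 higher in RA, with sums of 2699 to 3352 in RA against 5979 to 7689 in DMSO. The brightest gene weighs most in this sum, and in DMSO it was msgn1, with a mean of 9.54 in RA against 11.83 in DMSO. Means were also lower in RA for tbx16 (8.67 against 9.92), tbx16l (8.24 against 9.28) and her7 (7.22 against 8.09). The mean of mespaa was lower too (5.47 against 6.22), but without a call. The remaining genes differed little, with means of 10.02 against 10.17 for tbxta, 7.59 against 7.55 for tbx6 and 7.51 against 7.63 for her1. Of 8 listed forebrain genes, 7 were on the array and tested, and all 7 were lower in RA (sums of 301.2 to 1067 in RA, against 3158 to 4966 in DMSO). Of 6 listed genes of rhombomeres 3 to 5, 5 were on the array and tested, and 2 were higher and 2 lower in RA. The Hox genes hoxb1a (3.35 ± 0.18, adjusted p = 6.13e-10) and hoxb3a (2.38 ± 0.14, adjusted p = 3.81e-09) were higher. The rhombomere transcription factor gene egr2b was at least 19.8-fold lower (adjusted p = 2.99e-12), and hoxa2b was lower (adjusted p = 1.85e-05), with a mean of 3.90 in RA against 5.24 in DMSO. The list's median was -0.37, whereas its sum was 6288 to 7231 in RA against 1585 to 1855 in DMSO, so that the sum and the median differ in sign. Hence fgf8a was higher while the border, tailbud and forebrain sums were lower. The sum of rhombomeres 3 to 5 was higher through hoxb1a and hoxb3a alone. The other tested genes of that list were lower in RA, namely egr2b, hoxa2b and the uncalled epha4a (mean of 8.44 against 8.81 in DMSO). At 10 µM antagonist the border sum was 1147 to 1390 and the forebrain sum 3495 to 4320, both overlapping DMSO. The tailbud sum was 7538 to 8407 at 10 µM antagonist against 5979 to 7689 in DMSO, with 0 genes called. In the rhombomere list, hoxa2b was higher (1.06 ± 0.16, adjusted p = 0.00333) and hoxb1a lower (-2.05 ± 0.18, adjusted p = 8.71e-06) at 10 µM antagonist than in DMSO, beside 0.0844% higher and 0.312% lower among all probe sets. No marker was listed at 0, since the lowest deposited value is 2. The markers en2a, en2b, emx3 and egr2b read at or below log2 4 on all RA arrays. They passed the filter through the other groups, so that the counts and p-values of these lists under RA are a description. The part of such marker shifts in the ligand values was not tested.

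Among the receptors, fgfr3 gave the clearest response and went in both directions. It encodes a receptor tyrosine kinase for Fgf ligands. Its log2 intensity was 8.96, 8.17, 8.74 and 8.52 in RA, 5.85, 5.42, 5.82 and 5.58 at 10 µM antagonist, 6.12, 5.78, 5.64 and 5.78 at 1 µM antagonist, and 6.37, 6.65, 6.49 and 6.35 in DMSO. The RA arrays lay above and both antagonist groups below all DMSO arrays. RA exceeded DMSO by 2.13 ± 0.16, which is 4.39-fold (adjusted p = 6.83e-08). The 10 µM antagonist was lower than DMSO by 0.80 ± 0.16, written as -0.80 on the log2 scale, or 1.74-fold (adjusted p = 0.0408). Leaving out any single array of the 8 ended that call, with adjusted p-values of 0.0658 to 0.166. The fold change lay between -0.86 and -0.67 in the 17 alternatives. At 1 µM the fold change was -0.63 ± 0.16, with an adjusted p of 0.352.

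The receptor gene fgfr4 read 11.57, 11.23, 11.46 and 11.18 in RA, against 10.63, 10.80, 10.34 and 10.59 in DMSO. All RA arrays were higher, by 0.77 ± 0.15 (adjusted p = 0.00218), or 1.70-fold. In the antagonist groups it averaged 10.27 ± 0.18 at 10 µM and 10.74 ± 0.23 at 1 µM, against 10.59 ± 0.19 in DMSO (SD). Neither difference from DMSO was called (adjusted p of 0.922 and 0.815).

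The other receptor genes were not called. For fgfr2 the log2 intensity was 8.0, 8.61, 7.50 and 8.11 in RA, against 7.54, 7.49, 6.69 and 7.59 in DMSO, and the groups overlapped at 1 RA array. The fold change was 0.73 ± 0.24 with an adjusted p of 0.108. It was called with the replicate number as a block in a fit of the RA and DMSO arrays (adjusted p = 0.0198) and without RA replicate 3 (0.0345), and over all alternatives its adjusted p ran from 0.0198 to 0.361. A dimmer second fgfr2 probe set gave 0.45 (adjusted p = 0.151). Both fgfr1a (0.30 ± 0.27) and fgfrl1a (-0.30 ± 0.20), a receptor-like gene whose product has no kinase domain, stayed uncalled (adjusted p of 0.739 and 0.623).

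The feedback inhibitors and the PEA3-group factors gave unlike results under RA. The phosphatase gene dusp6 encodes a cytoplasmic phosphatase that switches off ERK. It read 12.05, 11.94, 12.04 and 12.16 in RA, 10.83, 10.49, 10.75 and 10.90 at 10 µM antagonist, 11.48, 10.88, 11.17 and 11.10 at 1 µM antagonist, and 10.97, 11.16, 11.37 and 10.75 in DMSO. The RA arrays all lay above every other array. The mean in RA exceeded that in DMSO by 0.99 ± 0.15, with a 95% interval of 0.67 to 1.30 (adjusted p = 0.000247). A second, dimmer dusp6 probe set was higher by 0.60 ± 0.18 and missed the threshold (adjusted p = 0.0595).

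In contrast, none of etv4, etv5a, etv5b, spry2, spry4 and spred1 was called under RA by limma, and etv4 alone had an unadjusted p under 0.05. The PEA3-group gene etv4 averaged 8.81 ± 0.19 in RA and 9.10 ± 0.18 in DMSO (SD), a fold change of -0.28 with a 95% interval of -0.56 to -0.0047 (adjusted p = 0.365). Its relative etv5b averaged 10.89 ± 0.17 in RA and 11.17 ± 0.15 in DMSO, a fold change of -0.28 with an interval of -0.55 to 0.0006 (adjusted p = 0.380). For etv5a the fold change was 0.0040 with an interval of -0.42 to 0.43, and its second probe set gave -0.026.

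The sproutys encode antagonists that act between receptor and ERK. The fold change of spry4 was 0.029 with an interval of -0.25 to 0.31, and that of spry2 was -0.31 with an interval of -0.65 to 0.029. A second spry2 probe set gave -0.335. For spred1, whose product holds back Raf activation by Ras, the value was 0.052 with an interval of -0.20 to 0.31. The difference between these members and dusp6 was not tested, and several of these intervals overlap that of the second dusp6 probe set (0.23 to 0.97).

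**Figure D2:**
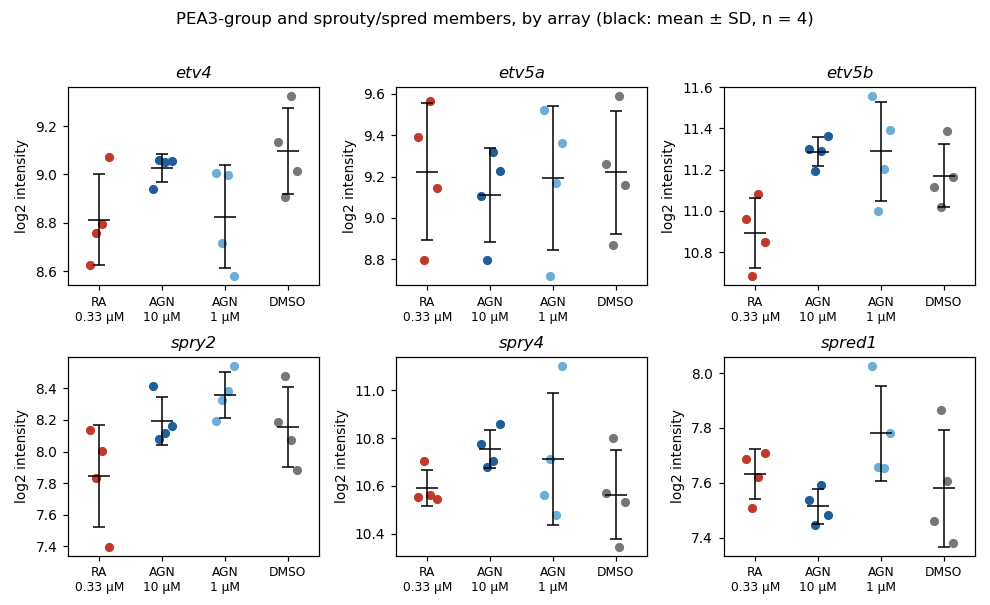
Log2 intensity (y axes, scaled per gene) of etv4, etv5a, etv5b, spry2, spry4 and spred1 on each array of the 4 groups (x axes); black bars are the mean and SD, n = 4. In all 6 panels the RA points overlap the DMSO points.

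The gene il17rd encodes Sef, a membrane protein that restrains Fgf signalling. It read 10.14, 9.71, 9.91 and 9.93 in RA, against 9.46, 9.54, 9.50 and 9.26 in DMSO, with no overlap. The fold change of 0.48 ± 0.16 missed the threshold (adjusted p = 0.101). With the replicate number as a block over all 16 arrays it passed (adjusted p = 0.0378), as it did with array weights (0.0175). It did not pass with the block in a fit of the RA and DMSO arrays alone (0.096), and the range over all alternatives was 0.0175 to 0.304.

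Of the 10 phosphatase genes of the dusp family, 9 were tested, and 1 rose (dusp6) and 1 fell (dusp2) under RA. The gene dusp2, which encodes a nuclear MAP kinase phosphatase, had the largest fold change among the 40 tested members. Its log2 intensity was 5.04, 4.51, 4.78 and 5.13 in RA, 9.24, 8.68, 9.10 and 8.65 at 10 µM antagonist, 9.08, 8.55, 8.85 and 8.79 at 1 µM antagonist, and 8.42, 8.15, 8.60 and 7.70 in DMSO. The highest RA array, at 5.13, lay below the lowest of the others, at 7.70. The mean in RA was lower by 10.2-fold, a log2 fold change of -3.35 ± 0.20 (adjusted p = 3.49e-09). All 10 µM antagonist arrays lay above all DMSO arrays, by 0.70 ± 0.20, which was not called (adjusted p = 0.354, and from 0.0117 with array weights to 0.986 over the alternatives). At 1 µM the difference was 0.60 ± 0.20 (adjusted p = 0.745).

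The remaining tested dusp genes were dusp1, dusp4, dusp5, dusp7, dusp11, dusp16 and dusp22a, and limma called 0 of these 7 under RA, beside 5.75% of all tested probe sets. None of the 7 had an unadjusted p under 0.05, beside 13.2% of all probe sets. The gene dusp5, which encodes an ERK phosphatase of the nucleus, read near the background in RA, so that no size is given (adjusted p = 0.429). Apart from dusp5, the largest value was that of dusp4 (0.43 ± 0.24, adjusted p = 0.516), which encodes another nuclear one. Only dusp4 was called in an alternative, with array weights (adjusted p = 0.0426, and up to 0.927 over the others). The stress-responsive dusp1 had -0.08 ± 0.16.

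Among the ETS genes, etv6 stood apart from the PEA3 group in its values. It encodes a transcriptional repressor of another ETS branch. Its log2 intensity was 9.36, 9.36, 9.48 and 9.86 in RA, 7.48, 7.59, 7.47 and 7.74 at 10 µM antagonist, 7.70, 7.30, 7.57 and 7.23 at 1 µM antagonist, and 7.74, 7.81, 8.40 and 7.86 in DMSO. The RA arrays were all higher than any other array, and RA exceeded DMSO by 1.56 ± 0.16, or 2.95-fold (adjusted p = 2.96e-06). Both antagonist groups lay below all DMSO arrays, with the closest arrays at 7.74 each after rounding. The fold changes were -0.38 ± 0.16 at 10 µM and -0.50 ± 0.16 at 1 µM. Neither was called (adjusted p of 0.845 and 0.695).

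**Figure D3:**
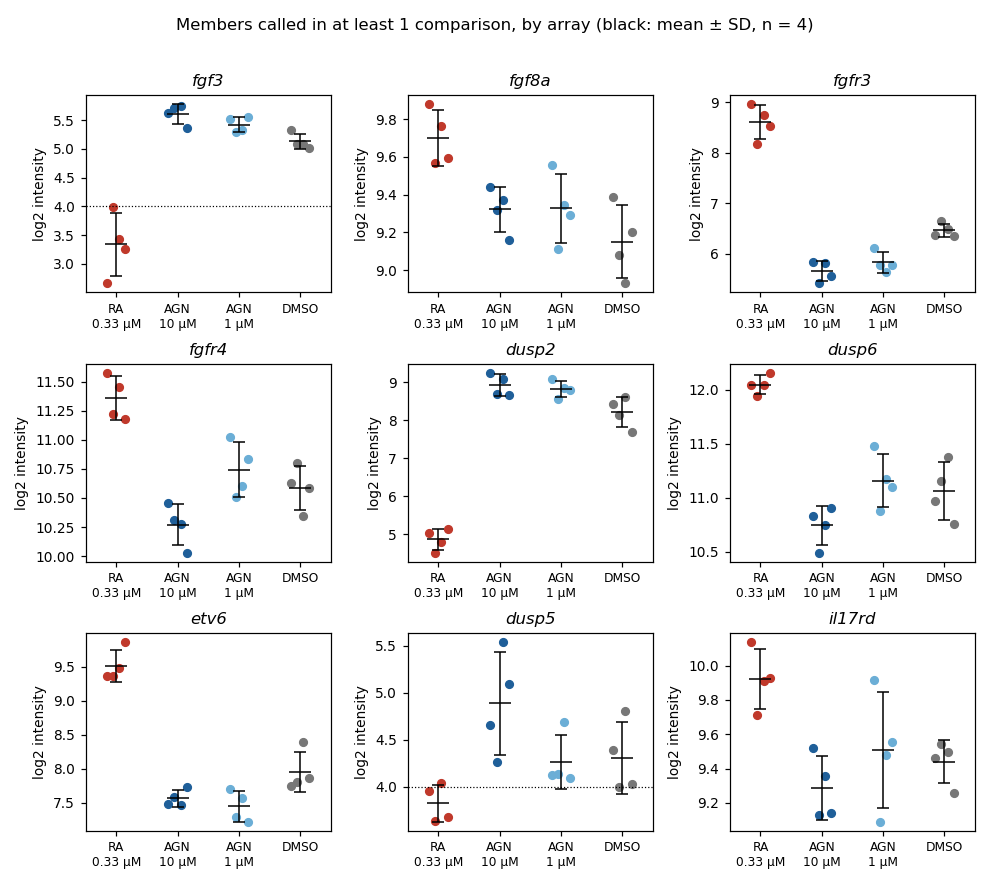
Log2 intensity (y axes, scaled per gene) on each array of the 4 groups (x axes) for the 9 members called in at least 1 comparison; black bars are the mean and SD, n = 4, and the dotted line marks log2 4. The RA arrays lie above all other arrays for fgf8a, fgfr3, fgfr4, dusp6 and etv6, and below all others for fgf3 and dusp2.

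The kinases of the cascade and their relatives gave no call. Of 14 genes under the mapk and map2k prefixes, 11 were tested, limma called 0 of them under RA and 0 under either antagonist dose, and 0, 1 and 0 had an unadjusted p under 0.05 under RA, 10 µM and 1 µM antagonist. Among all tested probe sets, 5.75%, 0.397% and 0.144% were called there, and 13.2%, 5.15% and 6.28% had an unadjusted p under 0.05. The ERK gene mapk3 averaged 10.06 ± 0.17 in RA and 9.78 ± 0.19 in DMSO (SD), a fold change of 0.28 with an interval of -0.03 to 0.58. Its other probe sets gave 0.16 and 0.014. The MEK genes map2k1 (0.15, interval -0.21 to 0.51) and map2k2a (0.10, interval -0.14 to 0.34) showed intervals that span 0. The remaining 8, among them the stress kinase genes mapk11, mapk12a, mapk14a and mapk14b, ran from 0.03 to 0.40 under RA, with mapk14b (0.37 ± 0.18, adjusted p = 0.421) higher on all RA arrays. Its closest arrays read 8.14 in RA and 8.13 in DMSO. A dimmer second mapk14b probe set overlapped, at 4.87 to 5.91 in RA and 5.02 to 5.15 in DMSO. The 1 kinase gene with an unadjusted p under 0.05 at 10 µM antagonist was mapk12a (0.39 ± 0.17, adjusted p = 0.865).

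Some members share only a prefix with the pathway. The genes spryd4, spryd7a and spryd7b encode proteins with a SPRY domain and are no sproutys, fgfr1op2 is no receptor, and dusp11 encodes a phosphatase of RNA. Among these 5, the fold changes under RA ran from -0.21 (spryd4) to 0.10 (fgfr1op2), and none was called. The secreted Fgf-binding protein gene fgfbp1a had -0.15 ± 0.15.

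RA and the 10 µM antagonist, compared directly, differed at 8 of 40 members (20%), beside 8.85% of all tested probe sets (4.79% higher and 4.06% lower). At an unadjusted p under 0.05 there were 17 members, beside 17.8% of all probe sets, and arrays did not overlap for 9 higher and 4 lower members, beside 13.8% (7.12% higher and 6.71% lower). Since fgf3 passed the filter through groups other than RA, and dusp5 mostly so, these counts are a description. Higher in RA were fgfr3 (2.93 ± 0.16), etv6 (1.95 ± 0.16), dusp6 (1.30 ± 0.15), fgfr4 (1.09 ± 0.15) and il17rd (0.63 ± 0.16). Lower in RA were dusp2 (-4.05 ± 0.20), fgf3, at least 3.05-fold lower, and dusp5. Their adjusted p-values ran from 1.88e-10 for dusp2 to 0.0144 for il17rd. Without RA replicate 1 or replicate 2 of the antagonist the il17rd call was lost (0.0526 and 0.0521). The groups differ in compound, dose and length of exposure, which cannot be told apart here.

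Of these, dusp5 and il17rd were not called against DMSO. The gene dusp5 read 3.95, 3.64, 4.03 and 3.68 in RA, against 4.66, 4.26, 5.54 and 5.09 at 10 µM antagonist. For dusp5, 3 of 4 RA arrays lay below log2 4, near the background, so that no size is given for the difference (adjusted p = 0.00796). For fgf8a, RA exceeded the 10 µM antagonist by 0.38 ± 0.13 with no overlap of arrays, which missed the threshold (adjusted p = 0.0867, from 0.0277 to 0.224 over the alternatives). The PEA3-group gene etv5b was lower on all RA arrays than on all 10 µM antagonist arrays, by a fold change of -0.39 ± 0.13 (adjusted p = 0.0838, from 0.0319 to 0.196 over the alternatives). The antagonist mean of fgf8a lay between those of RA and DMSO. The fgfr2 difference of 0.79 ± 0.24 lay just past the threshold (adjusted p = 0.0504) and was called in 4 of 17 alternatives.

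Between the antagonist doses, 10 µM against 1 µM, limma called 0 of 40 members, beside 0.00844% of all tested probe sets. With no adjustment 4 members (fgfr4, dusp6, dusp5 and spred1) had a p under 0.05, beside 8.92% of all probe sets. Arrays did not overlap for fgfr4 and spred1, both lower at 10 µM, beside 4.96% (2.82% higher and 2.14% lower). The smallest p was that of fgfr4, at -0.48 ± 0.15 with all 10 µM arrays lower (adjusted p = 0.554). For dusp6 the difference was -0.41 with an interval of -0.73 to -0.10. For fgfr3 the difference between the doses was -0.17 with an interval of -0.51 to 0.18, which does not show that the doses act alike.

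Besides the members, 85 other symbols of the pathway were listed by role, of which 50 were on the array and 42 were tested. Among the others, kal1a and kal1b are older symbols of the listed anos1a and anos1b. Under RA, 3 of the 42 were higher and 4 lower, beside 3.18% higher and 2.57% lower among all tested probe sets, and the median was -0.04 on the log2 scale, beside 0.01 over all tested probe sets. Of 12 genes of heparan sulphate and other factors outside the cell, 2 rose and 2 fell. Those that rose were ext1a (1.01 ± 0.13, adjusted p = 3.6e-05), which encodes a polymerase of heparan sulphate chains, and the heparan sulphate sulphotransferase gene hs6st1a (0.59 ± 0.14, adjusted p = 0.015). Those that fell were sulf1 (-1.10 ± 0.17, adjusted p = 0.000242), which encodes an enzyme that removes sulphate groups from these chains, and the proteoglycan gene sdc4 (-0.43 ± 0.11, adjusted p = 0.0293).

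Of 18 genes of receptor adaptors and the Ras and Raf relay, 1 rose, the docking protein gene gab1 (0.49 ± 0.13, adjusted p = 0.0397), and 0 fell. For this count and the next, the shares over all probe sets under RA were 3.18% higher and 2.57% lower. Of 12 other nuclear factors linked to ERK, 0 rose and 2 fell, the immediate early gene ier5 (-0.55 ± 0.09, adjusted p = 0.000926) and the Myc gene mycb (-1.04 ± 0.14, adjusted p = 6.4e-05). With an unadjusted p under 0.05 but no call stood jun (-0.63 ± 0.19, adjusted p = 0.0604), ier2a (-0.67 ± 0.22, adjusted p = 0.0974) and fosl2 (-0.35 ± 0.16, adjusted p = 0.368). Under the antagonist, limma called 0 of 42 at 10 µM, beside 0.397% of all tested probe sets, and 0 of 42 at 1 µM, beside 0.144%. At an unadjusted p under 0.05 were sulf2a (-0.45 ± 0.17) and ets2 (-0.83 ± 0.28) at 10 µM, and sulf1 (0.56 ± 0.17) at 1 µM. Beside these stand 5.15% and 6.28% of all probe sets.

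**Figure D4:**
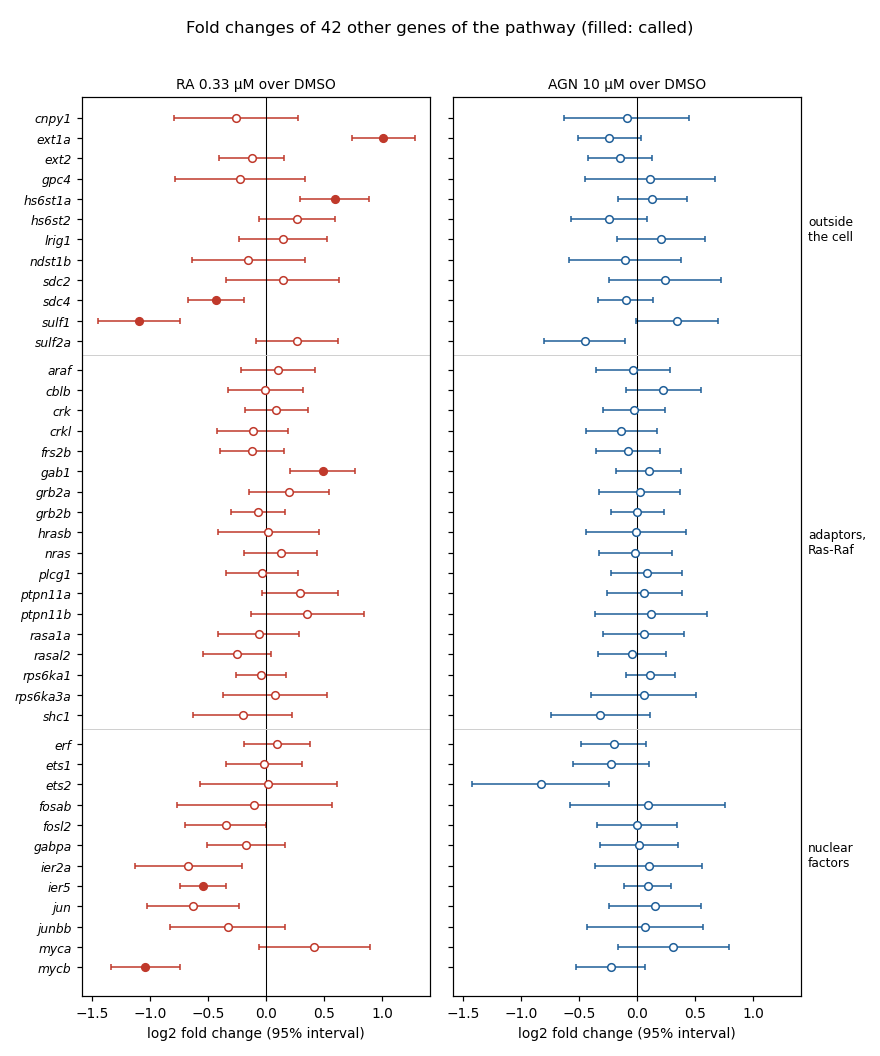
Fold change of the 42 tested other genes of the pathway (log2 scale, points) with 95% intervals (bars) for RA over DMSO and for 10 µM antagonist over DMSO; filled points are called at an adjusted p under 0.05. In the RA panel 7 points are filled, from -1.10 (sulf1) to 1.01 (ext1a), and none is filled in the antagonist panel.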

How the data were processed

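The authors deposited linear intensities of 15617 probe sets on 16 arrays. The submitters' processing notes name GCRMA without a version. Any further scaling, scan dates and batches are not given in the sources used here. Groups and replicate numbers came from the sample titles. Log2 of the deposited intensities was fitted with limma 3.58.1 under R 4.3.3 (4 group means over 16 arrays, moderated variances, 12 residual and 4.45 prior degrees of freedom, two-sided). The 115 control probe sets were left out, and p-values were adjusted over the 11843 probe sets above log2 4 on at least 4 arrays. Where the lower group stayed at or under log2 4 throughout, its level was replaced by log2 4 and the fold is a bound. The p-values came from the values before this replacement. Precision is limited by the number of arrays. The fit was tested on simulated data with known changes.

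Symbols came from the platform annotation, where 10802 probe sets had 1 symbol, 135 several and 4680 none, and were updated by Entrez number through the table of assembly GRCz12tu (10718 matched, 1 changed). Members, lists and tests were chosen with earlier results of these data known. Named with values are members called in any comparison, the 3 smallest p-values of each comparison with DMSO, and a fixed list of core pathway genes; those of that list with no probe set here under their symbol, such as spry1, flrt3 and fgf17, were not analysed here. The heart, somite and blood marker lists held 5, 5 and 3 tested genes. For RA against DMSO, 1, 0 and 0 of these were higher and 1, 2 and 2 lower. The shares over all 11843 probe sets in the fit were 3.18% higher and 2.57% lower. The blood gene tal1 read at or below log2 4 on all RA arrays and passed the filter through the other groups.

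Deviations from group means correlated between RA and DMSO arrays of the same number at 0.134, 0.269, 0.336 and 0.153. The highest values with DMSO arrays of other numbers were 0.100, 0.300, 0.237 and 0.176, above the same number for RA replicates 2 and 4. A pairing by number is therefore not established, and the main fit is unpaired. Nor is a pairing excluded, since each same-number value was set against the highest of the others. The value with the replicate number as a block is given where it changes a call. Over all group pairs, 16 of 24 same-numbered pairs exceeded 0.1, and in 11 of 24 the same number gave the highest value. Alternatives were no filter or log2 6, quantile normalization, median centring, array weights, the block, 2-group fits, trended robust eBayes, other probe sets and leaving out each array. The block in 2-group fits was added after seeing the data.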

Additional observations from a re-analysis of the deposited data

Results flagged for a closer look

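In each group of 4 arrays, an array was singled out where its gap to the next one exceeded Dixon's 95% critical share of the group's range. Over 40 tested members in 4 groups this gave 6 of 160 (3.75%), and chance flags about 1 in 20 such groups. In RA, mapk3 read 10.32 on replicate 1, against 9.96 to 9.98 on the others, and spry4 read 10.71 on replicate 2, against 10.54 to 10.56. At 10 µM antagonist, etv4 read 8.94 on replicate 1, against 9.05 to 9.06. At 1 µM antagonist, dusp5 read 4.69 on replicate 3, against 4.10 to 4.13. In DMSO, replicate 3 was low for fgfr2 (6.69, against 7.49 to 7.59) and for mapk14b (7.46, against 8.02 to 8.13).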

How the results depend on the processing

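The 7 members called for RA over DMSO kept their call and direction in every alternative that tested them, with 1 exception. The second dusp6 probe set missed the threshold (0.0595). For fgf3, which is too dim for the filter at log2 6, the calls are a description. The number called ran from 7 to 8 when 1 array was left out and from 6 to 9 otherwise. For RA over 10 µM antagonist it was 8, from 7 to 9 without 1 array, and 13 with array weights. For 10 µM antagonist over DMSO the 1 call, fgfr3, became 0 without any 1 array, 0 with trended robust eBayes (adjusted p = 0.0534) and 0 with the replicate block in a fit of both groups (0.13), while array weights gave 2, with dusp2 added. The other 2 comparisons gave 0 in all settings. The replicate block over all 16 arrays called 8, 1, 0, 11 and 0 members in the 5 comparisons (main: 7, 1, 0, 8 and 0). Over all tested probe sets that block called 804 for RA over DMSO (main: 681) and 1205 for RA over 10 µM antagonist (main: 1048). Among named members of RA over DMSO it changed no call but that of il17rd. For RA over 10 µM antagonist that block also called fgfr2 (0.0274), fgf8a (0.0357) and etv5b (0.0419). The block in a 2-group fit called none of these, with 0.0956 for fgf8a and 0.0988 for etv5b. Array weights called fgf8a (0.0277) and quantile normalization called etv5b (0.0319). Over all tested probe sets, array weights called 1194 for RA over DMSO (main: 681), 1946 for RA over 10 µM antagonist (main: 1048) and 255 for 10 µM antagonist over DMSO (main: 47). The block in 2-group fits called 25 for 10 µM (main: 47) and 2 for 1 µM antagonist over DMSO (main: 17), and 2-group fits alone called 7 for the last. Named members that were not called kept that side in all alternatives for 13 of 16 under RA, 21 of 22 at 10 µM and 23 of 23 at 1 µM antagonist over DMSO, and 9 of 15 for RA over 10 µM antagonist. No result reversed. The deposited values hold no detection call, so values near log2 4 set no level.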
